A study of Mus musculus with 3 samples.

Results

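The 38 genes described here are type I interferon-stimulated genes, listed by symbol because type I interferon is known to induce them and not by a threshold on their values here. The list was, however, chosen with earlier results of these data known. The shares of members called, set below against all genes, are therefore descriptive and no independent support. Of these, 37 were among the 31053 genes that the 3 libraries share, and *Mx2* was not analysed here. Their RNA was counted by droplet-based single-cell RNA sequencing of cells sorted from mouse Peyer's patches (PP), the lymphoid organs of the small intestine whose high endothelial venules recruit lymphocytes. Each gene's unique molecular identifiers (UMIs, which count captured RNA molecules) were summed over the cells of one class in one library and divided by all UMIs of those cells, which gives the CPM scale (UMIs of the gene in every 1000000 UMIs).

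The control library, labelled WT, came from mice of strain C57BL/6. The 2 EC-iCOUPOE libraries, replicates 1 and 2, came from mice labelled CDH5(PAC)CreERT2;COUP-TFIIOE/OE, in which tamoxifen activates a Cre recombinase driven by the endothelial *Cdh5* promoter and Cre switches on a COUP-TFII (*Nr2f2*) transgene. All mice were 6 to 10 weeks old, cells were taken 14 to 19 days after tamoxifen, and male and female animals were processed together. The *Cdh5* promoter is active in endothelial cells (EC) of blood and lymphatic vessels alike, so overexpression was not limited to one vessel type. The study's methods name Cre-negative and WT mice as controls, and the labels do not say which of them the control library held. The number of mice in a library is not given either, and both EC-iCOUPOE libraries were set against the same control library. With 1 control library no test was run, and genotype, library and strain background cannot be told apart. Intervals at 95% cover counting error only, and a gene was called higher or lower where both EC-iCOUPOE libraries differed from the control at least 2-fold in the same direction and at least 20 UMIs had been counted over the 3 libraries.

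Type I interferons bind the receptor pair IFNAR1 and IFNAR2 and, through the kinases JAK1 and TYK2, activate the complex ISGF3, of which STAT2 and IRF9 are parts and which binds interferon-stimulated response elements near gene starts and switches on antiviral genes. The products bind viral RNA (IFIT proteins, oligoadenylate synthetases), modify proteins (ISG15), sense nucleic acids, hold virions at the membrane (BST2) or damp the pathway itself (USP18). EC carry the receptors, and in the gut the pathway is known to be active at a low level without infection.

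The response element reads GAAANNGAAA, and the promoters below show it in members on which the results turn. Promoter windows of 250 bases before and 50 bases from the start of each gene were taken from RefSeq on GRCm38.p6, and 28 of the 38 members had one. The motif, read on both strands and with overlapping matches counted, was present in 15 of these 28 members (53.6%) and in 1079 of 27025 genes (3.99%), or in 1131 of 32851 windows (3.44%). The promoters printed were chosen because they hold a match, and members such as *Ifit2*, *Herc6*, *Oasl2* and *Irf7* held 0 matches in this window. A match is a run of letters and not a shown binding site. Each run below ends at the base before the gene's start, is written 5′ to 3′ on the gene's strand, and has the motif, or its reverse complement TTTCNNTTTC, in capitals.
Ifit1 (chr19:34640779-34640888, plus strand): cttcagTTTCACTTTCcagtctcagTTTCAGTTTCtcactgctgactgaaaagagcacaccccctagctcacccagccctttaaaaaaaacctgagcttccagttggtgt
Ifit3 (chr19:34583359-34583528, plus strand): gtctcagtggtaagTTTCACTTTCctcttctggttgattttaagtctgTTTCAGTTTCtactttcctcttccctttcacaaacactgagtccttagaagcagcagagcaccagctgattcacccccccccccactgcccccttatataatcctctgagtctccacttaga
Ifit3b (chr19:34607757-34607956, plus strand): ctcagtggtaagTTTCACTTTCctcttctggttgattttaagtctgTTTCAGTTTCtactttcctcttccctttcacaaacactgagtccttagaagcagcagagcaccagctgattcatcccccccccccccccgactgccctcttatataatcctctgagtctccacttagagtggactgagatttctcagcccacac
Isg15 (chr4:156200819-156200968, minus strand): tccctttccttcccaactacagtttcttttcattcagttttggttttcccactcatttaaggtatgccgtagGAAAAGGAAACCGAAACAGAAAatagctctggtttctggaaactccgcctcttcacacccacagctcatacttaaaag
Oas1a (chr5:120907526-120907625, minus strand): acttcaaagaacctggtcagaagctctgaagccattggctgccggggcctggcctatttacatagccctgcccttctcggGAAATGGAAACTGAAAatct
Bst2 (chr8:71537473-71537622, minus strand): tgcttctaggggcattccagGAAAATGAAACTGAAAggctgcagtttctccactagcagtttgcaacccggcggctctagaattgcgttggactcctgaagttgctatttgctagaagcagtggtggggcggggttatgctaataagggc
Ifi213 (chr1:173599273-173599372, minus strand): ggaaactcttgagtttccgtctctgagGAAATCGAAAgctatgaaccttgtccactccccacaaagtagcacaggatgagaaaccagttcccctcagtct
Ifi206 (chr1:173491319-173491418, minus strand): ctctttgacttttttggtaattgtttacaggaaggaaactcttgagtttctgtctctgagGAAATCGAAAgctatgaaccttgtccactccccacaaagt
Rsad2 (chr12:26456453-26456602, minus strand): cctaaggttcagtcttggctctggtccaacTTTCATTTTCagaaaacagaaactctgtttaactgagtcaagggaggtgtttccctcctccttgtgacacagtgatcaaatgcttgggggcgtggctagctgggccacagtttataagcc
Stat2 (chr10:128270268-128270497, plus strand): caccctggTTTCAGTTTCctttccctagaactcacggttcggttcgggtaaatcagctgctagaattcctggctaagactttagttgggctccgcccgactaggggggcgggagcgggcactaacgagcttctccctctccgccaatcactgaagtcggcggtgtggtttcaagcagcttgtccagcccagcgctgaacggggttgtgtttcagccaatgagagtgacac

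*Ifit1* held the motif 94 and 75 bases before its start, and *Isg15* held 3 overlapping matches between 68 and 56 bases before its start. *Ifit3* and *Ifit3b* carried the same pair of matches and shared an unbroken run of 169 of 300 promoter bases. These genes are near-identical neighbours on chromosome 19, and a read that fits both cannot be told apart, so their separate counts are uncertain. *Ifi213* and *Ifi206*, both on chromosome 1, carried the same motif letters 63 and 30 bases before their starts. *Stat2* held 1 match, 212 bases before its start.

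After filtering, 5207 control cells, 4562 cells of EC-iCOUPOE replicate 1 and 1229 cells of replicate 2 were clustered, out of 6080, 4959 and 1441 barcodes with medians of 2180 to 2884 UMIs. Control and replicate 2 shared 12 barcodes, and the other pairs shared 0. The sort was labelled blood endothelium, but the control library held 2030 fibroblast-like cells against 7 and 5 in the EC-iCOUPOE libraries, and it held 0 lymphatic-like EC against 899 and 126. These classes were therefore left out of every comparison of genotypes. *Nr2f2* stood at 19.1 CPM in control capillary-like EC and at 2183 and 1387 CPM in the EC-iCOUPOE libraries, in the direction that the labels give. Blood EC numbered 2401, 3280 and 969, and their clusters were named by marker genes as capillary, arterial, postcapillary venule (PCV), high endothelial (HEC) or capillary resident progenitor (CRP) like.

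The members' summed level was higher in both EC-iCOUPOE libraries than in the control library in 5 of the EC groups compared. It was close to the control in arterial-like EC taken as a whole, whose single clusters lay above or below it. In pericytes it differed in direction between the replicates. Over all blood EC it was 2034 CPM (95% interval 2002 to 2066) in the control, 3827 CPM (3792 to 3862) in replicate 1 and 3437 CPM (3362 to 3513) in replicate 2, 1.88- and 1.69-fold higher. *Bst2*, *Ifi27l2a* and *Isg15* were the members with most UMIs, and without them the ratios were 1.598- and 1.64-fold. The difference was therefore not carried by these 3 genes alone. Of the 35 members with enough UMIs, 11 were called higher (31.4%) and 0 lower, where 5.64% of all 11916 genes were called higher and 3.36% lower. The 11 were *Ifit1*, *Ifit2*, *Ifit3*, *Ifit3b*, *Isg15*, *Oasl2*, *Oas1a*, *Oas2*, *Ifi213*, *Ifi206* and *Bst2*. Among them *Ifi213*, *Ifi206*, *Oas1a* and *Oas2* had only 2, 0, 16 and 18 UMIs over all control cells. These genes had enough UMIs mainly through the EC-iCOUPOE libraries, which limits what the share of members called can show. The median member log2 ratio was 0.55 in replicate 1 and 0.78 in replicate 2, against 0.14 and 0.01 over all genes.

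By class, CRP-like EC went from 1954 CPM in the control to 5014 and 3980.3 CPM (2.57- and 2.04-fold), although only 28 control cells stood behind it. The size of this ratio depended on the clustering. With another random seed the class held 126 control cells. When cells were clustered at resolution 0.6 the mean log2 ratio of its summed level was 0.65, against 1.19 here. HEC-like EC went from 1630.0 to 4003 and 3156 CPM (2.46- and 1.94-fold). Capillary-like EC went from 2364 CPM (2277 to 2455) to 4051 and 4122 CPM (1.71- and 1.74-fold). These classes lay above the control in both replicates with counting intervals that did not overlap it.

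PCV-like EC went from 2373 to 4050.0 and 3501 CPM (1.71- and 1.48-fold), and unnamed cluster 3, led by *Scgb3a1*, *Cxcl12* and *Esm1*, from 1928 to 3062 and 2779.7 CPM (1.59- and 1.44-fold). In arterial-like EC the level was 2553 CPM in the control and 2866 and 2659 CPM in the EC-iCOUPOE libraries, 1.12- and 1.04-fold, and the interval of replicate 2 (2533 to 2789) overlapped that of the control (2460.0 to 2648) while that of replicate 1 (2798 to 2934) lay above it. In the cells with pericyte and smooth muscle markers it was 1931, 2052 and 1536 CPM, higher in one replicate and lower in the other. In the control library the order of the EC classes was arterial, PCV, capillary, CRP and HEC from high to low, in which the intervals of PCV-like EC (2282 to 2467) overlapped those of both arterial-like and capillary-like EC. The first place of arterial-like EC rested on cluster 9, described below. Without that cluster their control level was 2193 CPM, below PCV-like and capillary-like EC.

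**Figure D1:**
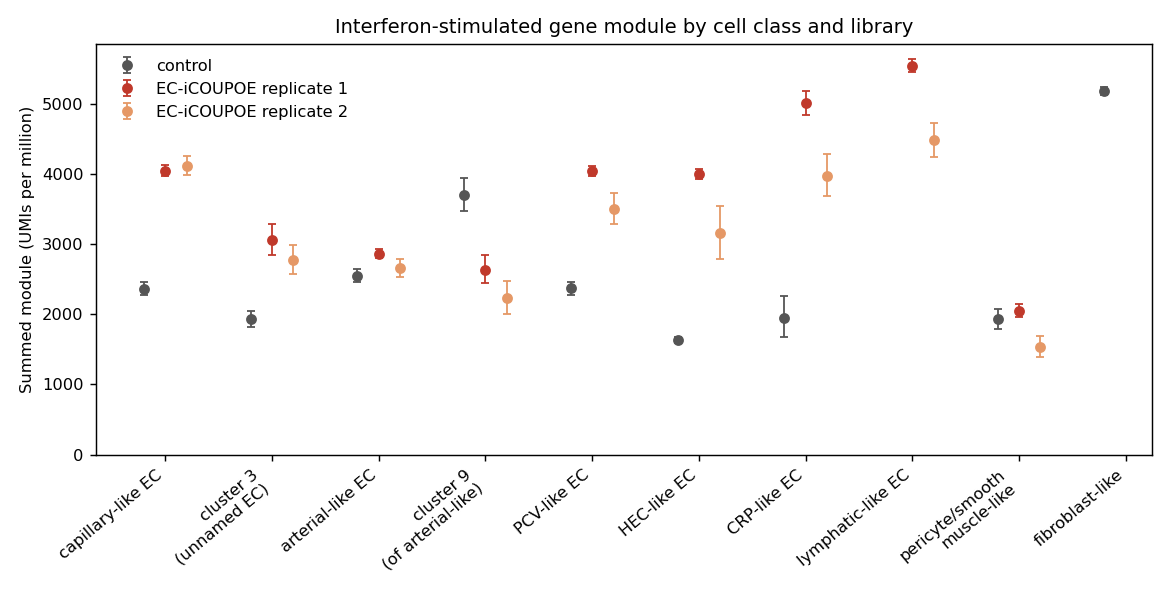
Summed level of the 37 measured members in CPM (vertical axis) for each cell class (horizontal axis), with 1 point per library and bars for the exact 95% Poisson interval of the counts. Points of fewer than 10 cells are left out. The 2 EC-iCOUPOE points lie above the control point in capillary-like, PCV-like, HEC-like and CRP-like EC and in cluster 3, near it in arterial-like EC and below it in cluster 9.

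Capillary-like EC were compared over 661 control cells, 933 cells of replicate 1 and 370 cells of replicate 2, with medians of 1414, 2264 and 2213.5 UMIs. Of the 37 members, 34 had at least 20 UMIs there, and *Oas2*, *Oas3* and *Mx1* did not, with 9, 1 and 2 UMIs in all. Called higher were 8 (23.5%), namely *Ifit1*, *Ifit2*, *Ifit3*, *Ifit3b*, *Isg15*, *Oas1a*, *Ifi213* and *Ifi206*, and 0 were called lower, where 5.74% of 9684 genes were called higher and 4.04% lower. Among the 8, *Oas1a*, *Ifi213* and *Ifi206* had 2, 0 and 0 control UMIs and reached 20 UMIs through the EC-iCOUPOE libraries. In all 24 lay above the control in both replicates, 2 lay below it in both and 8 lay on opposite sides. The median log2 ratio of the 34 was 0.50 and 0.57, against 0.02 and -0.14 over all genes.

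The IFIT genes, whose products bind viral RNA and block its translation, were all 4 called higher. *Ifit3* had 34 UMIs in the control (29.4 CPM, 20.4 to 41.1), 574 in replicate 1 (238 CPM, 219 to 259) and 149 in replicate 2 (175 CPM, 148 to 206), log2 ratios of 3.02 and 2.57. *Ifit1* had 73, 450 and 298 UMIs, which gave 63.2 CPM (49.6 to 79.5), 187 CPM (170.03 to 205.0) and 350.3 CPM (312 to 392.4), log2 ratios of 1.56 and 2.47. Both genes were high in both EC-iCOUPOE libraries, and their order between the replicates differed. *Ifit2* was counted 20, 171 and 36 times, at 17.3 CPM (10.6 to 26.8), 71.0 CPM (60.8 to 82.5) and 42.3 CPM (29.6 to 58.6), log2 ratios of 2.04 and 1.29. *Ifit3b* was counted 11, 51 and 47 times, at 9.53 CPM (4.76 to 17.0), 21.2 CPM (15.8 to 27.9) and 55.2 CPM (40.6 to 73.5), log2 ratios of 1.15 and 2.54. For none of the 4 did the counting interval of either ratio reach 0.

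*Isg15*, the ubiquitin-like protein that is joined to other proteins, had 153, 899 and 459 UMIs, at 133 CPM (112 to 155) in the control, 373 CPM (349 to 399) in replicate 1 and 539.5 CPM (491 to 591) in replicate 2, log2 ratios of 1.49 and 2.03. Its ligase *Herc6* (35.5, 42.4 and 52.9 CPM) had log2 ratios of 0.25 and 0.57. *Usp18*, which removes ISG15 and blocks IFNAR2, had 47, 82 and 57 UMIs, at 40.7 CPM (29.9 to 54.1), 34.1 CPM (27.1 to 42.3) and 67.0 CPM (50.7 to 86.8), log2 ratios of -0.26 and 0.72. The modifier was thus higher in both replicates, and its enzymes did not meet the rule.

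In capillary-like EC taken as a whole, the transcription factors of the pathway did not follow the IFIT genes. For *Irf7* this depended on which clusters made up the class. It was called higher in cluster 6 alone, and with cells clustered at resolution 0.6 its mean log2 ratio was 1.06, against 0.11 here. *Irf9* and *Stat2* had mean log2 ratios of 0.35 and -0.45 at resolution 0.6. *Irf7*, which amplifies interferon production, had 177, 533 and 105 UMIs, at 153 CPM (132 to 178), 221 CPM (203 to 241) and 123 CPM (101 to 149), log2 ratios of 0.53 and -0.31 in opposite directions. *Irf9*, the DNA-binding part of ISGF3, had 74, 164 and 58 UMIs, at 64.1 CPM (50.3 to 80.5), 68.1 CPM (58.1 to 79.4) and 68.2 CPM (51.8 to 88.1), log2 ratios of 0.09 and 0.09. *Stat2* had 50, 70 and 31 UMIs, at 43.3 CPM (32.1 to 57.1), 29.1 CPM (22.7 to 36.7) and 36.4 CPM (24.8 to 51.7), log2 ratios of -0.57 and -0.25. The interval of the *Irf9* ratio ran from -0.32 to 0.50 in replicate 1 and from -0.43 to 0.60 in replicate 2, so a 2-fold difference lies outside it in both.

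Of the oligoadenylate synthetases, which activate an RNA-degrading enzyme, *Oas1a* had 2, 32 and 9 UMIs, at 1.73 CPM (0.21 to 6.26), 13.3 CPM (9.09 to 18.8) and 10.6 CPM (4.84 to 20.1), log2 ratios of 2.94 (counting interval 0.97 to 6.05) and 2.61 (0.34 to 5.86). *Oasl2* (65.0, 113 and 119 CPM) had log2 ratios of 0.80 and 0.87. *Oasl1*, known in mice to limit *Irf7* translation, had 13, 45 and 9 UMIs, at 11.3 CPM (5.99 to 19.3), 18.7 CPM (13.6 to 25.01) and 10.6 CPM (4.84 to 20.1), log2 ratios of 0.73 and -0.09. The family therefore differed among its members, and of the 3 with enough UMIs *Oas1a* alone met the rule, on few control molecules.

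*Rsad2*, whose product viperin makes a chain-terminating nucleotide, and its neighbour *Cmpk2*, a nucleotide kinase, differed in direction between the replicates. *Rsad2* had 47, 48 and 66 UMIs, at 40.7 CPM (29.9 to 54.1), 19.9 CPM (14.7 to 26.4) and 77.6 CPM (60.0 to 98.7), log2 ratios of -1.03 and 0.93. *Cmpk2* had 21, 27 and 23 UMIs, at 18.2 CPM (11.3 to 27.8), 11.2 CPM (7.39 to 16.3) and 27.0 CPM (17.1 to 40.6), log2 ratios of -0.70 and 0.57. Replicate 1 lay below the control and replicate 2 above it for both.

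Among the nucleic acid sensors, *Ifi213* and *Ifi206*, members of the PYHIN family of DNA-binding proteins, were not counted in control capillary-like EC. *Ifi213* had 0 UMIs in the control (upper limit 3.19 CPM), 122 in replicate 1 (50.7 CPM, 42.1 to 60.5) and 30 in replicate 2 (35.3 CPM, 23.8 to 50.3). With the control set to 3 UMIs it was 19.5- and 13.6-fold higher, with lower counting limits of log2 3.97 and 3.37. *Ifi206* had 0 UMIs in the control, 38 in replicate 1 and 27 in replicate 2, at 15.8 CPM (11.2 to 21.7) and 31.7 CPM (20.9 to 46.2) in the EC-iCOUPOE libraries. Against the same 3 UMIs it was 6.07- and 12.2-fold higher, with lower counting limits of log2 2.23 and 3.21. The sensors of cytoplasmic RNA stayed within 2-fold of the control. *Ifih1* had log2 ratios of 0.56 and 0.27, *Dhx58* of 0.26 and 0.25 and *Zbp1*, which senses Z-form nucleic acids, of 0.58 and 0.27. *Ddx58* had 58, 144 and 31 UMIs, at 50.2 CPM (38.1 to 64.9), 59.8 CPM (50.4 to 70.4) and 36.4 CPM (24.8 to 51.7), log2 ratios of 0.25 and -0.46. *Eif2ak2*, the RNA-activated kinase that halts translation, had 51, 106 and 27 UMIs, at 44.2 CPM (32.9 to 58.1), 44.0 CPM (36.0 to 53.2) and 31.7 CPM (20.9 to 46.2), 44.2 and 44.0 CPM being the same within counting error, and a log2 ratio of -0.48 in replicate 2.

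*Bst2*, the tetherin that holds budding virus at the cell surface, had 272, 1461 and 388 UMIs, at 236 CPM (208 to 265), 607 CPM (576 to 639) and 456 CPM (412 to 504), log2 ratios of 1.37 and 0.95, which fell just short of the rule in replicate 2. *Ifi27l2a*, a small mitochondrial membrane protein, had 106, 683 and 116 UMIs, at 91.8 CPM (75.2 to 111), 284 CPM (263 to 306) and 136 CPM (113 to 164), log2 ratios of 1.63 and 0.57. *Rtp4*, a chaperone of membrane receptors, had 176, 561 and 245 UMIs, at 152 CPM (131 to 177), 233 CPM (214 to 253) and 288 CPM (253 to 326), log2 ratios of 0.61 and 0.92. All 3 lay above the control in both replicates. *Ifi35* had 312, 604 and 279 UMIs, at 270.2 CPM (241 to 302), 251 CPM (231 to 272) and 328 CPM (291 to 369), log2 ratios of -0.11 and 0.28. *Xaf1* had 144, 369 and 132 UMIs, at 125 CPM (105 to 147), 153 CPM (138 to 169.7) and 155 CPM (129.8 to 184), log2 ratios of 0.30 and 0.32. *Trim30a* had 117, 285 and 144 UMIs, at 101 CPM (83.8 to 121), 118 CPM (105 to 133) and 169 CPM (143 to 199), log2 ratios of 0.22 and 0.74. None of these 3 abundant members met the rule, although *Trim30a* was 1.67-fold higher in replicate 2. *Ifi44* (84.0, 137 and 114 CPM) had log2 ratios of 0.71 and 0.44.

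The nuclear proteins and ADP-ribosyltransferases stayed within 2-fold of the control in both replicates. *Sp100*, a nuclear body protein, had 128, 329 and 154 UMIs, at 111 CPM (92.5 to 132), 137 CPM (122 to 152) and 181 CPM (154 to 212), log2 ratios of 0.30 and 0.71, and *Phf11d* had log2 ratios of 0.32 and 0.10. *Parp14*, an ADP-ribosyltransferase, had 136, 389 and 101 UMIs, at 118 CPM (98.8 to 139), 162 CPM (146 to 178) and 119 CPM (96.7 to 144), log2 ratios of 0.46 and 0.01. *Parp9*, which works with the ubiquitin ligase *Dtx3l*, had 45, 130 and 29 UMIs, at 39.0 CPM (28.4 to 52.1), 54.0 CPM (45.1 to 64.1) and 34.1 CPM (22.8 to 49.0), log2 ratios of 0.47 and -0.19, and *Dtx3l* had log2 ratios of 0.24 and 0.40. None of these 5 met the rule.

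**Figure D2:**
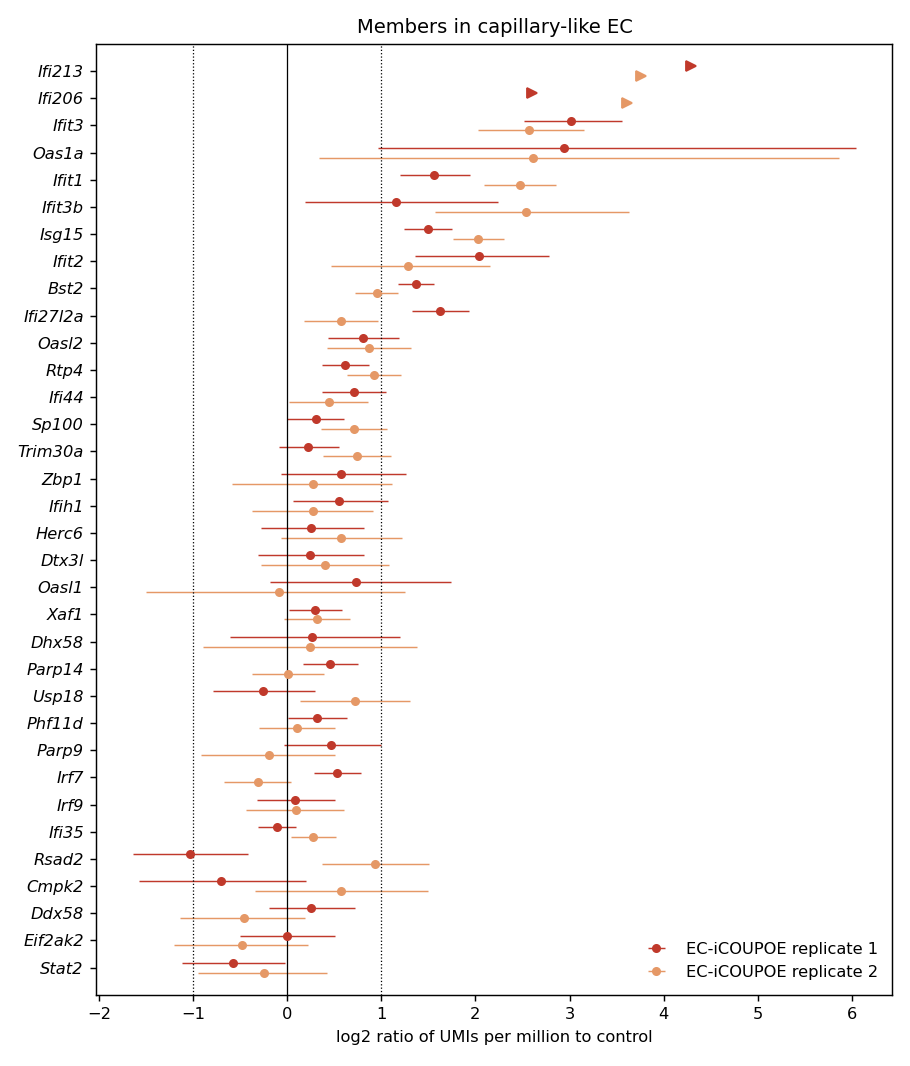
Log2 ratio of each EC-iCOUPOE library to the control library in capillary-like EC (horizontal axis) for the 34 members with at least 20 UMIs (vertical axis), with exact 95% counting intervals and triangles where the control held 0 UMIs. *Ifi213*, *Ifit3*, *Oas1a*, *Ifi206*, *Ifit1*, *Isg15*, *Ifit3b* and *Ifit2* lie past a log2 ratio of 1 in both replicates, and *Stat2* lies below 0 in both.

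Other values moved with the genotype in capillary-like EC, and their part in the difference was not tested. The summed markers of PCV were at 749 CPM in the control and at 3025 and 4269 CPM in the EC-iCOUPOE libraries, and those of arteries at 2933, 687 and 775 CPM. Of 15 immediate early genes, which respond to tissue dissociation and other stress, 8 were called higher and 0 lower (*Fos* 929, 3401 and 5443 CPM). Over all genes of this class 5.74% were called higher and 4.04% lower. Hemoglobin and other erythroid genes stood at 4899, 1.66 and 36.4 CPM, epithelial markers at 2.60, 79.7 and 69.4 CPM and fibroblast markers at 157, 0.83 and 7.05 CPM. Within arterial-like and PCV-like EC, 0 of the 15 immediate early genes were called in either direction.

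Capillary-like EC were made up of different clusters in the 2 genotypes. Cluster 1 held 543 and 290 EC-iCOUPOE cells and 8 control cells, and cluster 8 held 302 and 42 EC-iCOUPOE cells and 8 control cells. Clusters 6, 11 and 12 held 431, 112 and 102 control cells. Cluster 1 scored 0.03 and cluster 8 scored 0.27 for capillary markers, the first of them led by *Prdm1* and *Cxcl10*, so their name is weakly supported. The members' sum was also read within single clusters. In cluster 6 it was 1762 CPM in 431 control cells, 3465 CPM in 37 cells of replicate 1 and 2823 CPM in 24 cells of replicate 2. In cluster 12 it was 3482, 4444 and 6242 CPM in 102, 23 and 13 cells, and in cluster 11 it was 2901 CPM in 112 control cells and 4142 CPM in 28 cells of replicate 1.

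With cluster 6 alone, 4 members were called higher (*Ifit3*, *Irf7*, *Bst2* and *Ifi27l2a*) and the median of the mean log2 ratios was 0.71. The share of all genes called in cluster 6 alone is not given here, so this count has no background to set it against. Without cluster 1 the sum was 2372 CPM in the control and 4029 and 3855 CPM in 390 and 80 EC-iCOUPOE cells. Of the 15 immediate early genes 1 was then called higher and 1 lower, with medians of the log2 ratios of -0.58 in replicate 1 and 0.79 in replicate 2. In HEC-like EC the sum was also higher within clusters, with 2509.7 CPM in the control against 4406 and 3188 CPM in cluster 4, and 1485 against 2709.6 CPM in replicate 1 in cluster 5. Over all blood EC clusters with at least 10 cells in the control and in an EC-iCOUPOE library, every EC-iCOUPOE library lay above the control except in cluster 9 and in cluster 14, where the interval of replicate 2 (2732 to 3716) overlapped that of the control (3110.2 to 3935).

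**Figure D3:**
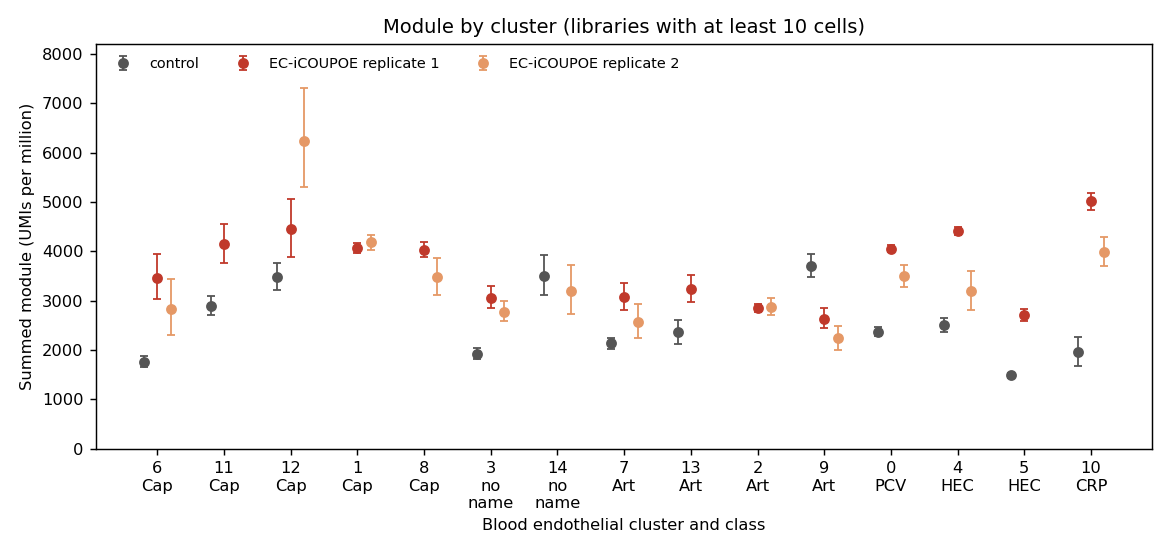
Summed level of the 37 measured members in CPM (vertical axis) within single clusters of blood EC (horizontal axis), with 1 point per library of at least 10 cells and exact 95% Poisson intervals. The EC-iCOUPOE points lie above the control point in clusters 0, 3, 4, 5, 6, 7, 10, 11, 12 and 13 and below it in clusters 9 and 14.

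Arterial-like EC held 3 members called higher and 2 called lower of 34, where 5.35% of 9537 genes were called higher and 4.24% lower, and the median log2 ratio was -0.05 and -0.04. *Bst2* was at 165.5 CPM in the control and at 489 and 389.5 CPM in the EC-iCOUPOE libraries, log2 ratios of 1.56 and 1.23. *Ifi213* had 0, 31 and 7 UMIs, 4.85- and 4.15-fold higher with the control set to 3 UMIs (lower counting limits of log2 1.89 and 1.36). *Oas1a* had 2, 32 and 6 UMIs, log2 ratios of 2.91 (0.94 to 6.01) and 2.42 (-0.07 to 5.76). These 3 genes were also above the control in both replicates of capillary-like EC. The classes share their libraries, so this is no replication. *Ifi213* and *Oas1a* had 0 and 2 control UMIs in both classes and reached 20 UMIs through the EC-iCOUPOE libraries. Arterial-like EC were, however, made up of different clusters in the 2 genotypes. Cluster 2 held 7 control cells and 563 and 145 EC-iCOUPOE cells, while clusters 7, 9 and 13 held 318, 123 and 66 control cells. In cluster 7 the members' sum was 2135 CPM in the control and 3077 and 2567 CPM in the EC-iCOUPOE libraries. In cluster 13 it was 2364 CPM in the control and 3229 CPM in replicate 1. Cluster 9, given below, went the other way. The summed arterial markers of the class stood at 6420.2 CPM in the control and at 3333 and 3480.3 CPM in the EC-iCOUPOE libraries, and those of PCV at 504, 2865 and 3515 CPM. Their part in the result was not tested.

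*Rsad2* went from 36 UMIs (32.0 CPM) in the control to 29 (12.1 CPM) and 6 (9.50 CPM), log2 ratios of -1.40 and -1.75, and *Oasl1* from 32 UMIs (28.5 CPM) to 34 (14.2 CPM) and 5 (7.92 CPM), log2 ratios of -1.005 and -1.85. In capillary-like EC both genes had log2 ratios of opposite sign in the 2 replicates. Some members that were above the control in both replicates there lay below it here in both. *Phf11d* had log2 ratios of -0.77 and -0.79, *Ifi27l2a* of -0.66 and -1.01, *Ifih1* of -0.58 and -0.82, *Ifi44* of -0.28 and -0.88, and *Irf9* of -0.06 and -0.34. The difference between the classes was not tested. *Ifit3* (33.8, 123 and 66.5 CPM) had log2 ratios of 1.86 and 0.98 and missed the rule by little.

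In cluster 9, 20 of 25 members with enough UMIs lay below the control in both replicates. This arterial-like cluster, with 123, 91 and 61 cells, was led by *Pi16*, *Ckb* and *Nebl*, none of them an arterial marker of the list. Its summed level was 3708 CPM in the control, the highest of the control clusters with at least 50 cells, and 2638 and 2237 CPM in the EC-iCOUPOE libraries. Of 25 members with enough UMIs, 0 were called higher and 7 lower, where 4.2% of 4852 genes were called higher and 4.31% lower, and the median log2 ratio was -0.58 and -0.92 against -0.02 and -0.12 over all genes. *Ifi27l2a* went from 929.8 CPM to 427 and 328 CPM (log2 ratios -1.12 and -1.50), *Ifi35* from 195 CPM to 83.0 and 88.2 CPM (-1.23 and -1.14) and *Ifi44* from 120.0 CPM to 47.5 and 44.1 CPM (-1.34 and -1.44). Fewer molecules stood behind *Rsad2* (20, 3 and 3 UMIs), *Oasl1* (19, 5 and 1), *Usp18* (17, 6 and 4) and *Ddx58* (13, 5 and 2). *Bst2* was the exception, at 172.5 CPM in the control and 399 and 296 CPM in the EC-iCOUPOE libraries (1.21 and 0.78). With cluster 9 left out, arterial-like EC held 5 members called higher (*Ifit1*, *Ifit3*, *Oas1a*, *Ifi213* and *Bst2*) and 0 lower, and the sum was 2193, 2893 and 2800.0 CPM. The median of the mean log2 ratios was then 0.05. With cluster 2 left out instead, 0 were called lower too, and that median was -0.28. The shares of all genes called in these subsets are not given here.

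PCV-like EC, the venules downstream of capillaries, held 9 members called higher and 0 lower of 33, where 4.43% of 9591 genes were called higher and 2.53% lower. *Ifit3* had 31, 841 and 52 UMIs, at 28.8, 277 and 191 CPM, log2 ratios of 3.27 and 2.73. *Bst2* stood at 190.4, 548 and 415 CPM (1.53 and 1.12), and *Ifi44* at 43.7, 97.6 and 91.8 CPM (1.16 and 1.07). *Ifi213* had 0, 52 and 4 UMIs, 6.15- and 5.27-fold higher with the control set to 3 UMIs. For these 4 genes the counting intervals of both ratios lay above 0. Replicate 2 held 94 cells, and the other 5 calls rest there on 1 to 5 UMIs with intervals that reach below 0, namely *Ifit2* (2.84 and 1.13), *Ifit3b* (4.46 and 2.98), *Oas1a* (2.97 and 1.98), *Cmpk2* (1.83 and 2.57) and *Rsad2* (1.15 and 1.57). *Ifit1* (155, 233 and 275 CPM) and *Isg15* (263, 359.7 and 444 CPM) were already higher in control PCV-like EC than in control capillary-like EC, and neither met the rule. Opposite in direction to capillary-like EC was *Dhx58*, with log2 ratios of -0.44 and -1.77 on 27, 56 and 2 UMIs. In these cells epithelial markers stood at 3.715 CPM in the control and at 311 and 319 CPM in the EC-iCOUPOE libraries, erythroid genes at 2474, 4.95 and 18.4 CPM and fibroblast markers at 123, 0.99 and 11.01 CPM. Their part in the result was not tested.

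HEC-like EC, which carry lymphocytes into PP, held 12 members called higher and 0 lower of 33, where 8.38% of 10127 genes were called higher and 0.8% lower. The class was made up of different clusters in the 2 genotypes. Cluster 4 held 98 control cells and 441 and 22 EC-iCOUPOE cells, and cluster 5 held 394 control cells and 98 and 2 EC-iCOUPOE cells. In cluster 4 the members' sum was 2510 CPM in the control and 4406 and 3188 CPM in the EC-iCOUPOE libraries. In cluster 5 it was 1485 CPM in the control and 2710 CPM in replicate 1. Each of these within-cluster ratios to the control was smaller than that of the whole class. The 12 calls were made on the whole class, and the part of this mix in them was not tested. The median member log2 ratio was 1.14 and 0.97, against 0.34 and 0.09 over all genes, so that part of the members' ratio in replicate 1 is shared by the typical gene. High endothelial markers such as *Glycam1* made up 94300.6 CPM in the control and 22296.5 and 26734 CPM in the EC-iCOUPOE libraries, and with TMM scaling, which sets libraries level on the bulk of their genes, 7 members were called higher and 0 lower. *Ifit3* had 31, 377 and 10 UMIs, at 9.05, 119 and 113 CPM, log2 ratios of 3.72 and 3.64. *Isg15* stood at 126, 326 and 316 CPM (1.37 and 1.33), *Bst2* at 227.5, 677 and 541 CPM (1.57 and 1.25) and *Oasl2* at 32.4, 97.3 and 135 CPM (1.59 and 2.06). *Irf7*, which lay on opposite sides in capillary-like EC, was at 43.8, 148 and 90.2 CPM here (1.75 and 1.04). *Ifi213* had 1, 76 and 2 UMIs, log2 ratios of 6.36 (3.84 to 11.7) and 6.27 (2.01 to 12.2).

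The other calls in HEC-like EC were *Usp18* (1.47 and 3.32), *Herc6* (1.14 and 1.78), *Ifit3b* (1.64 and 2.18), *Ifih1* (1.102 and 1.23), *Zbp1* (2.48 and 1.95) and *Oas1a*, with 0, 44 and 1 UMIs. Replicate 2 held 24 HEC-like cells, and in it *Ifit3b*, *Irf7*, *Ifih1*, *Zbp1* and *Oas1a* had intervals that reach below 0. *Ifi27l2a* had 852, 3042 and 41 UMIs, at 249, 961 and 462 CPM, log2 ratios of 1.95 and 0.89. *Eif2ak2* had 176 and 135 UMIs in the control and replicate 1 and 0 in replicate 2.

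CRP-like EC, described as angiogenic progenitors among capillaries, held 8 members called higher and 0 lower of 31, where 11.3% of 5712 genes were called higher and 5.2% lower. *Bst2* had 19, 643 and 140 UMIs, at 207.5, 1013 and 784 CPM, log2 ratios of 2.29 and 1.92. *Ifi27l2a* stood at 109, 797 and 521 CPM (2.87 and 2.25) and *Irf7* at 76.4, 280.3 and 196 CPM (1.87 and 1.36). *Ifit3* had 1, 112 and 17 UMIs, log2 ratios of 4.01 (1.51 to 9.33) and 3.12 (0.45 to 8.51). *Ifit1* had 0, 94 and 19 UMIs, 4.52- and 3.25-fold higher with the control set to 3 UMIs. With 28 control cells 7 of the 31 members had 0 control UMIs, and *Oasl2*, *Herc6* and *Ifit3b* were called on 5, 1 and 1 control UMIs with an interval that reached below 0 in at least one replicate. *Dtx3l* lay below the control, with log2 ratios of -0.99 and -0.74 on 6, 21 and 7 UMIs. Other values moved with the genotype here too. The summed lymphatic markers of the class stood at 131, 896 and 1299 CPM and the immediate early genes at 5175, 7498 and 15462 CPM, and their part in the result was not tested.

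In cluster 3, which combined capillary and arterial markers and was left unnamed, 4 members were called higher and 1 lower of 25, where 2.87% of 6162 genes were called higher and 2.86% lower. *Bst2* went from 147 CPM to 624.5 and 363 CPM (2.09 and 1.30), *Ifit3* from 12.6 CPM to 56.8 and 42.9 CPM (2.18 and 1.77) and *Rsad2* from 14.4 CPM to 60.8 and 50.7 CPM (2.08 and 1.82). *Herc6* had 10, 11 and 10 UMIs (1.31 and 1.12), and *Eif2ak2*, with 29, 6 and 4 UMIs, was the one called lower (-1.10 and -1.74). Erythroid genes stood at 716, 3326 and 23.4 CPM in this cluster, and their part in the result was not tested. *Rsad2* was thus above the control in cluster 3 and PCV-like EC and below it in arterial-like EC. *Dtx3l* was below the control in both replicates here as well (-0.30 and -0.52).

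Cells with pericyte and smooth muscle markers, in which the *Cdh5* promoter is not known to be active, held 120, 194 and 89 cells. Of 24 members with enough UMIs 1 was called higher and 0 lower, where 3.59% of 7582 genes were called higher and 4.18% lower, and the median log2 ratio was 0.02 and -0.76. The one was *Ifit3*, with 3, 58 and 16 UMIs, at 8.36, 70.3 and 57.4 CPM, log2 ratios of 3.07 (1.45 to 5.39) and 2.78 (0.98 to 5.20). *Isg15* was at 131, 256 and 542 CPM (0.97 and 2.05) and *Bst2* at 91.9, 304 and 147 CPM (1.73 and 0.68). *Ifi27l2a* lay below the control, at 674, 341 and 208 CPM (-0.99 and -1.70), opposite to capillary-like EC, and so did *Herc6*, *Irf9*, *Ifih1*, *Sp100* and *Phf11d*. *Nr2f2* stood at 267, 1173 and 624.6 CPM in these cells and blood endothelial markers at 3605, 4590.1 and 649.7 CPM, so endothelial RNA was present among them in every library and its part was not tested. Fibroblast markers stood at 2003 CPM in the control and at 484 and 452 CPM in the EC-iCOUPOE libraries. Control fibroblast-like cells had 4310.3 CPM of *Ifi27l2a*, and the part of fibroblast RNA in its lower ratio here was not tested.

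**Figure D4:**
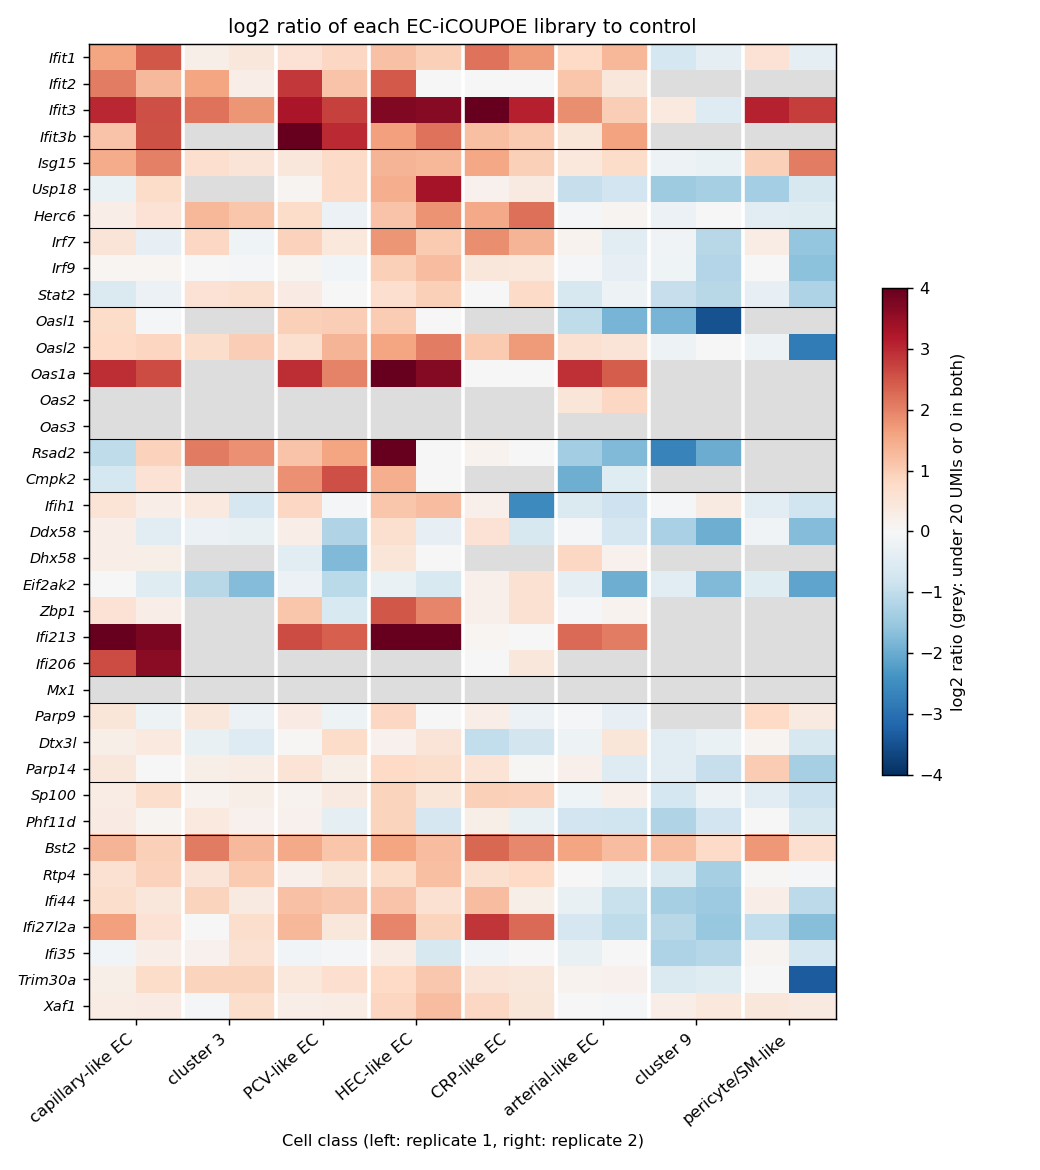
Log2 ratio to the control library for each member (rows) in each class or cluster (column pairs, replicate 1 left and replicate 2 right), with colours clipped at 4 and -4 and grey where a member had fewer than 20 UMIs or 0 UMIs on both sides. *Ifit3* and *Bst2* are above the control in every class shown apart from *Ifit3* in replicate 2 of cluster 9, and the cluster 9 columns are mostly below it.

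Across the 6 EC groups compared (capillary, arterial, PCV, HEC and CRP like and cluster 3), 18 of the 37 members were called higher in 0 groups, 7 in 1, 6 in 2 and 1 (*Herc6*) in 3. *Ifit3b*, *Oas1a* and *Ifi213* were called higher in 4 groups, and *Ifit3* and *Bst2* in 5. Of all genes, 2.87% (cluster 3) to 11.3% (CRP-like EC) were called higher in a group, and the same tally over all genes is not given here. *Oas1a* and *Ifi213* had 7 and 2 control UMIs over all blood EC. The groups share their libraries, so these counts are no replication. *Ifit3* fell short in arterial-like EC alone and *Bst2* in capillary-like EC alone. Among the 18 were *Irf9* and *Stat2* of ISGF3, *Ddx58*, *Dhx58* and *Eif2ak2*, and the abundant *Rtp4*, *Ifi35*, *Xaf1*, *Sp100* and *Trim30a*. Also among them were *Oas3* and *Mx1*, which had enough UMIs in 0 of the 6 groups, and *Oas2*, which had them in 1.

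*Ifi213* and *Ifi206* stood out by their near absence in the control. Over all cells, *Ifi213* had 2 UMIs in 5199 control cells, 335 in 4561 cells of replicate 1 and 57 in 1229 cells of replicate 2, and *Ifi206* had 0, 97 and 45. Other interferon-stimulated genes that are no members showed the same pattern, with 5, 973 and 163 UMIs of *Trim12a* and 0, 404 and 62 of *Trim30d*, while *Ifi44l* had 32 UMIs in control capillary-like EC and 0 in both EC-iCOUPOE libraries. For such genes a difference of strain background cannot be told apart from one of genotype. Lymphatic-like EC of the EC-iCOUPOE libraries had 0 UMIs of *Ifi213* and *Ifi206* in 2274880 and 290280 UMIs (upper limits 1.62 and 12.7 CPM), where blood EC of the same libraries had 26.2 and 22.7 CPM of *Ifi213*.

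Lymphatic-like EC were measured in the EC-iCOUPOE libraries alone, with 899 and 126 cells, and carried the highest member sums of the EC classes, 5547 CPM (5450.3 to 5644) and 4482 CPM (4242 to 4732). The single blood EC cluster 12 lay higher in replicate 2, with 6242 CPM in 13 cells. *Ifi27l2a* led with 1869 and 1791 CPM, followed by *Bst2* at 851 and 675 CPM and *Isg15* at 444 and 296 CPM, and without these 3 the sums were 2383 and 1719 CPM. The rank holds for the sum with these 3 genes, and none is given without them. In the same libraries capillary-like EC had 284 and 136 CPM of *Ifi27l2a*. Stroma was measured in the control library. Its fibroblast-like cells had 5185 CPM (5126 to 5245), of which *Ifi27l2a* made 4310.3 CPM, and 725 CPM without the 3 leading members. Glia-like cells (199 control cells) had 3176 CPM with *Ifi27l2a* at 1728 CPM, and 406 unnamed control cells outside the blood endothelium had 2499 CPM with *Ifi27l2a* at 1679 CPM. *Ifi27l2a* was thus the leading member in stroma and in lymphatic-like EC, and the remaining members were lower in fibroblast-like cells than in control blood EC (1442 CPM without the 3).

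The difference was spread over cells. With each cell thinned to 1000 UMIs, which left out no cell, control capillary-like EC had a median of 2 member UMIs per cell (quartiles 1 and 3) and EC-iCOUPOE cells a median of 3 in both replicates (quartiles 2 and 6 in replicate 1, 2 and 5 in replicate 2). The 5% of cells with most member UMIs held 22.1% of them in the control and 17.3% and 19.5% in the EC-iCOUPOE libraries. In HEC-like EC the medians were 1, 4 and 3, and in arterial-like EC 2 in all 3 libraries. A few very high cells therefore did not make up the difference.

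Male and female cells, told apart by *Xist* and Y-linked genes, gave the same direction. In female capillary-like EC the member sum was 2404 CPM in the control and 3775 and 4212 CPM in the EC-iCOUPOE libraries, and in male cells it was 2567 CPM in 30 control cells and 4088 and 3474 CPM. In female blood EC it was 1981, 3839.7 and 3468 CPM and in male blood EC 2060.1, 3863 and 3327 CPM. The members were also set against *Nr2f2* within libraries. In capillary-like EC of replicate 1 thinned to 1000 UMIs, cells with 0 *Nr2f2* UMIs had 4448 CPM (4140.4 to 4773) and cells with 1 or more had 4123 CPM (3979 to 4269.6), and in replicate 2 the values were 4632 CPM (4251 to 5039) and 3972 CPM (3731 to 4226). Over all blood EC the order differed between replicates, with 3682 and 3976 CPM in replicate 1 and 3531 and 3453 CPM in replicate 2 for cells with 0 and with 1 or more. In control capillary-like EC the values were 2270.4 CPM (2156 to 2389) in 651 cells with 0 *Nr2f2* UMIs and 3400.0 CPM (2355 to 4751) in 10 cells with 1 or more. A cell at this depth can express the gene and give 0 UMIs.

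The rest of the pathway was read from lists of its parts. Calls are those in capillary-like EC, where 5.74% of 9684 genes were called higher and 4.04% lower. No ligand was counted in an amount that could be compared. Of 21 genes for interferons, among them *Ifnb1* and the *Ifna* genes, 20 had 0 UMIs in every library, and *Ifng* had 2 UMIs, both in the control. The receptors *Ifnar1* (39.0, 48.6 and 43.5 CPM) and *Ifnar2* (169, 149.9 and 177.5 CPM) were counted in capillary-like EC of all libraries, and 0 of the 5 receptor genes with enough UMIs were called in either direction. Of 9 receptor-proximal signalling genes 1 was called higher, *Irf1* (164, 448 and 960.4 CPM), a factor that interferon gamma and inflammatory signals also induce.

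Of 9 negative regulators 2 were called higher and 0 lower in capillary-like EC, where 5.74% of all genes were called higher and 4.04% lower. *Socs1*, which blocks JAK kinases, had 11, 305 and 143 UMIs, at 9.53, 127 and 168 CPM (log2 ratios 3.73 and 4.14), and *Socs3* was at 319.6, 1332 and 1754 CPM (2.06 and 2.46). Of 13 sensing genes *Myd88* was called higher (1.13 and 1.30) and *Trim25*, a ubiquitin ligase for RIG-I, lower (141, 51.5 and 47.0 CPM, -1.45 and -1.59). Of 56 further type I interferon-stimulated genes 12 were called higher and 3 lower, with median log2 ratios of 0.25 and 0.18. Of those called higher the most abundant were the surface proteins *Ly6a* (974, 3875 and 3898 CPM) and *Ly6e* (544, 1132 and 3089 CPM), followed by *Slfn2* (33.8, 136 and 101 CPM) and *Gm4951* (31.2, 98.4 and 109 CPM).

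Of 29 genes associated with interferon gamma, 6 were called higher and 2 lower in capillary-like EC, where 5.74% of all genes were called higher and 4.04% lower. *Cxcl10*, a chemokine for T cells that both interferon types induce, had 48, 1956 and 1604 UMIs, at 41.6, 812 and 1885 CPM, log2 ratios of 4.29 and 5.50, and *Cxcl9*, *Cd274*, *Gbp6*, *Irf1* and *Socs1* were also higher. *H2-D1*, an MHC class I gene, was at 6163, 2923 and 2667 CPM (-1.08 and -1.21) and *Gbp4* at 285, 128 and 88.2 CPM (-1.16 and -1.69). *Cxcl10* was uneven among clusters, with 1329.6 and 2294 CPM in cluster 1 of the EC-iCOUPOE libraries and 47.8 and 155 CPM in cluster 8, where the members' sums were 4066 and 4184 CPM and 4033 and 3479.8 CPM. The members' sum in replicate 1 was thus alike in a cluster with high and a cluster with low *Cxcl10*.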

How the data were processed

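The 3 libraries were 10x droplet libraries of sorted PP endothelium. The authors aligned and counted reads with Cell Ranger 3.0.2 against mm10 (the header of EC-iCOUPOE replicate 1 gives 3.1.0, the labels name 2 versions of the kit, and whether replicate 1 was counted against another reference is not given in the sources used here) and deposited raw UMI counts per gene and barcode, which were used as deposited. *CreERT2* and *TdTomato* had 0 UMIs in the control and in replicate 2. Neither was among the genes listed for replicate 1, so its gene list differed from that of the other libraries.

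Barcodes entered the clustering from 500 genes and 1000 UMIs upwards if mitochondrial UMIs made up no more than 10%. Doublets were removed by Scrublet score (scanpy 1.11.5) at a fixed rate of 0.8% per 1000 barcodes, since its automatic threshold marked 138, 6 and 6 cells. The libraries were clustered in Seurat 5.3.0 (2000 variable genes without 261 interferon genes, 30 components, 20 neighbours, resolution 1) and clusters were named from marker lists. How the marker scores decide a name was set after clusters were seen. UMIs were then summed per class and library and intervals computed with scipy 1.17.1, under R 4.3.3 and Python 3.11.15. TMM scaling used edgeR 4.0.16. A control count of 0 was set to 3 UMIs for its ratio, and the lower counting limit of such a ratio can lie below it. A class was compared only where every library held 10 cells of it or more. Single clusters of at least 10 cells were used, because the 50 cells per library first required were not reached. The calling code was tested on simulated data.

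The members and lists were chosen with earlier results of these data known. In capillary-like EC, full values are given for the 12 members with the highest mean CPM, the 5 with the largest and the 5 with the smallest ratio nearest to 0 (with ties), and *Irf7*, *Irf9* and *Stat2*. In other classes the members called or opposite in direction are named. The alternatives were resolution, variable genes, doublets, depth, scaling, thinning, cohort, count filter, fold rule, added count and library.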

Additional observations from a re-analysis of the deposited data

Results flagged for a closer look

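*Rsad2* differed in direction between EC classes in both replicates. Its log2 ratio to the control was -1.40 and -1.75 in arterial-like EC, 1.15 and 1.57 in PCV-like EC and 2.08 and 1.82 in cluster 3. The difference was not tested. The values rest on 36, 29 and 6 UMIs in arterial-like EC, 4, 25 and 3 UMIs in PCV-like EC and 8, 15 and 13 UMIs in cluster 3, in the order control, replicate 1 and replicate 2.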

How the results depend on the processing

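No paired analysis was possible because there was 1 control library and the results come from no test. Counts are of members called higher unless said otherwise, and medians are of the mean log2 ratio. The shares of all genes called under the alternatives are not given here. *Ifit3* was called higher in capillary-like EC under all 15 alternatives counted, *Ifit1*, *Isg15*, *Ifi213* and *Ifi206* under 14, *Ifit3b* and *Oas1a* under 11 and *Ifit2* under 10. A looser fold rule or a dropped count filter can undo no call, so such settings say nothing on stability. Cluster 6 alone is not among the 15, and of these genes *Ifit3* alone was still called there. Each cause below was not tested. At resolution 0.6 capillary-like EC had 13 (median 0.95), arterial-like EC 1 lower (-0.0649) and CRP-like EC 3 (0.24). At resolution 1.6 capillary-like EC had 1 lower (0.84), and medians were -0.0855 in arterial-like, 0.85 in HEC-like and 0.56 in CRP-like EC. With interferon genes kept among the variable genes, arterial-like EC had 0 lower (0.10), PCV-like EC 5 and pericytes 1 lower. With doublets kept, the capillary-like median was 0.68, arterial-like EC had 0 lower (0.16), CRP-like EC 3 and 1 lower (0.29) and pericytes 2 lower. With at least 2000 UMIs per cell, medians were 0.38 in capillary-like, -0.0779 in arterial-like and 0.47 in PCV-like EC. With TMM scaling the capillary-like median was 0.60, arterial-like EC had 1 lower (0.0328), HEC-like EC 7 (0.63), CRP-like EC a median of 0.64 and pericytes 2. With cells thinned to 1000 UMIs, the blood EC median was 0.47, arterial-like EC had 0 higher and 1 lower (-0.11), PCV-like EC 4 (0.44), HEC-like EC 7, CRP-like EC a median of 0.68 and pericytes 2 higher and 1 lower. In female cells the capillary-like median was 0.44, arterial-like EC had 1 lower (-0.0757), PCV-like EC a median of 0.44, HEC-like EC 4 (0.62), CRP-like EC a median of 1.01 and pericytes 0. In male cells blood EC had 6, the capillary-like median was 0.34, arterial-like EC had 0 lower (0.20) and PCV-like EC 5 (0.43). Without a count filter pericytes had 1 lower, and with at least 50 UMIs arterial-like EC had 1. With a 1.5-fold rule arterial-like EC had 5 higher and 5 lower, HEC-like EC 21, CRP-like EC 1 lower and pericytes 3 higher and 2 lower. With a 3-fold rule blood EC had 6, capillary-like EC 4, arterial-like EC 0 lower, PCV-like EC 5, HEC-like EC 6 and CRP-like EC 4. With 0.5 UMI added the CRP-like median was 0.80.

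The following were chosen after seeing the data. Another random seed gave medians of 0.69 in capillary-like and -0.0278 in arterial-like EC and 4 in CRP-like EC (0.25). Another rounding of the linear algebra gave 1 lower in capillary-like EC, an arterial-like median of -0.0027, a CRP-like median of 0.85 and 1 lower in pericytes, so the clustering itself was not stable. Capillary-like EC had 4 (0.71) with cluster 6 only, 1 lower (0.59) without cluster 1 and a median of 0.59 with cluster 3. Arterial-like EC had 1 higher and 0 lower (-0.28) without cluster 2 and 5 higher and 0 lower (0.0512) without cluster 9. Leaving out each EC-iCOUPOE library gave 14 higher and 0 to 1 lower in blood EC, 8 to 10 and 0 to 1 in capillary-like, 5 and 3 to 4 in arterial-like, 10 to 11 and 0 to 3 in PCV-like, 16 to 19 and 0 in HEC-like and 8 to 10 and 0 to 1 in CRP-like EC, and 2 to 3 higher and 1 to 10 lower in pericytes. The rule is looser there, because 1 ratio past 2-fold is enough, so larger counts are no added support. The share of all genes called under it is not given here. The pericyte median was -0.76 without EC-iCOUPOE replicate 1 and 0.021, of opposite sign to the value of both, without EC-iCOUPOE replicate 2. HEC-like EC had 24 cells in replicate 2 and CRP-like EC 28 in the control, which limits the precision there.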
